A study of Mus musculus with 6 samples.

Results

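Short miRNA reads are read sequences of 20 nt or less that carry a miRNA label, and 1638 of the 143934 read sequences of the table were such reads, chosen by their label, their length and a mean of at least 1 RPM (reads scaled to a library total that is the same for all libraries) over the 6 libraries. They came from 379 of 1091 miRNA labels. The choice rested on the mean over all libraries and used no contrast of ages. The libraries hold small RNAs bound to Argonaute proteins (R-sRNAs) in the combined cortex and hippocampus of BL6 mice, 3 libraries of mice 2 months old (2M) and 3 of mice 18 months old (18M). The study's methods name the animals as male C57BL/6J, and the labels give no transgene or treatment in either group. Ago1-4 were pulled down with a peptide of GW182, RNA was cut from a gel at 19 to 35 nt, and libraries were read on an Illumina HiSeq instrument. The question asked of the short reads was how large a share of each miRNA they made up and whether that share differed between the ages.

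In an Argonaute protein the 5′ end of a miRNA is held in the MID domain, its 3′ end lies in the PAZ domain, and the seed near the 5′ end pairs with targets. Exonucleases can shorten the exposed 3′ end without touching the seed, and nucleotidyl transferases can add bases to it. Some target RNAs pair extensively with the 3′ part of a miRNA and lead to its decay, as the long noncoding RNA Cyrano does for miR-7 and Nrep for miR-29b.

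The label "trimmed" was checked against the most abundant read of each miRNA over the 6 libraries, here called the main read. For 356 of the 379 labels the main read was 21 nt or longer, so that a read of 20 nt or less was shorter than the usual form. For the other 23 labels the main read was itself 20 nt or less. These 23 labels held 12.1% of the short reads, and their main reads alone held 9.76%. For them "short" describes the usual form in these libraries, which can still be shorter than the RefSeq mature sequence. For miR-127-3p the main read was 20 nt and the mature sequence 22 nt. A RefSeq mature sequence of 20 nt or less was held by 12 of the 379 labels, and 3 of these had such a main read.

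The sequences that carry the results are shown 5′ to 3′ in DNA letters, with bases 2 to 8 in capitals. Mature sequences are those of RefSeq (GRCm38.p6), which had an entry for 329 of the 379 labels, and the reads are from the deposited table. The first set holds abundant short reads that ended before the mature 3′ end, each under its mature sequence.
miR-26a-5p, mature: tTCAAGTAatccaggataggct
miR-26a-5p, 20 nt: tTCAAGTAatccaggatagg
miR-128-3p, mature: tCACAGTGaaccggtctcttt
miR-128-3p, 20 nt: tCACAGTGaaccggtctctt
miR-125b-5p, mature: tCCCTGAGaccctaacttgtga
miR-125b-5p, 20 nt: tCCCTGAGaccctaacttgt
let-7b-5p, mature: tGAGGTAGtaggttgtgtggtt
let-7b-5p, 20 nt: tGAGGTAGtaggttgtgtgg
miR-29a-3p, mature: tAGCACCAtctgaaatcggtta
miR-29a-3p, 20 nt: tAGCACCAtctgaaatcggt
miR-24-3p, mature: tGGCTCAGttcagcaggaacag
miR-24-3p, 20 nt: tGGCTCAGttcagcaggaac

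The second set holds miRNAs whose main read was 20 nt.
miR-127-3p, mature: tCGGATCCgtctgagcttggct
miR-127-3p, main read: tCGGATCCgtctgagcttgg
miR-30e-5p, mature: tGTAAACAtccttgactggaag
miR-30e-5p, main read: tGTAAACAtccttgactgga
miR-33-5p, mature: gTGCATTGtagttgcattgca
miR-33-5p, main read: gTGCATTGtagttgcattgc
miR-144-3p, mature and main read: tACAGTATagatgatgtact

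The third set holds the reads that limma called between the ages, and the most abundant short read of the miRNA whose short-read share it called.
miR-338-3p, mature: tCCAGCATcagtgattttgttg
miR-338-3p, 18 nt: tCCAGCATcagtgatttt
miR-296-5p, mature: aGGGCCCCccctcaatcctgt
miR-296-5p, 20 nt: aGGGCCCCccctcaatcctg
miR-296-5p, 19 nt: aGGGCCCCccctcaatcct
miR-298-5p, mature: gGCAGAGGagggctgttcttccc
miR-298-5p, 20 nt: gGCAGAGGagggctgttctt
miR-376a-3p, mature: aTCGTAGAggaaaatccacgt
miR-376a-3p, 20 nt: aTCGTAGAggaaaatccacg

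The fourth set holds a miRNA whose short reads started elsewhere than its main read, and a pair of miRNAs that a short read cannot tell apart.
miR-101a-3p, main read: gTACAGTActgtgataactga
miR-101a-3p, 20 nt: tACAGTACtgtgataactga
miR-103-3p, mature: aGCAGCATtgtacagggctatga
miR-107-3p, mature: aGCAGCATtgtacagggctatca
miR-107-3p, 20 nt: aGCAGCATtgtacagggcta

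The shown miRNAs lie at these places in GRCm38.p6, with genes from GENCODE M21 on the same strand. Mature miR-127-3p is at chr12:109592888-109592909 (+) and miR-376a-3p at chr12:109723824-109723844 (+), both outside annotated introns and exons of other genes. Mature miR-296-5p is at chr2:174267093-174267113 (-), next to miR-298-5p at chr2:174267553-174267575 (-), and again no other gene of that strand covers them. The miR-338-3p locus, chr11:120014781-120014802 (-), is in an intron of Aatk. The miR-33-5p locus, chr15:82198127-82198147 (+), is in an intron of Srebf2, which encodes a regulator of cholesterol synthesis, and miR-30e-5p, chr4:120772660-120772681 (-), is in an intron of Nfyc. The erythroid miR-144-3p is at chr11:78073047-78073066 (+), outside other genes. Those of miR-103-3p are in introns of Pank2, chr2:131288103-131288125 (+), and Pank3, chr11:35782447-35782469 (+), and miR-107-3p, chr19:34820700-34820722 (-), is in an intron of Pank1. The loci of miR-26a-5p are in introns of Ctdspl, chr9:119031811-119031832 (+), and Ctdsp2, chr10:126995543-126995564 (+). For miR-128-3p they are in introns of R3hdm1, chr1:128202404-128202424 (+), and Arpp21, chr9:112118644-112118664 (-). For miR-125b-5p they are at chr9:41581940-41581961 (+), in the sense intronic RNA Gm28119 and introns of 2 noncoding genes, and at chr16:77646279-77646300 (+), in an intron of Mir99ahg. The let-7b-5p locus, chr15:85707325-85707346 (+), is in an exon of the noncoding gene Lncppara, and miR-101a-3p, chr4:101346957-101346977 (-), in an exon of the noncoding gene E130102H24Rik. The miR-29a-3p locus, chr6:31062673-31062694 (-), is outside other genes, and miR-24-3p is at chr8:84208875-84208896 (+), outside other genes, and at chr13:63301251-63301272 (+), in an exon of 2010111I01Rik.

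The libraries held 19272046 to 25080484 reads, and every short miRNA read that met the minimum was read in all 6 libraries. The brain markers miR-124-3p, miR-9-5p and miR-128-3p were abundant in each library, from 25150 to 134300 RPM. Lower values were found for the brain markers miR-338-3p, at 3485 to 6088 RPM, and miR-219a-2-3p, at 702 to 963 RPM. The liver marker miR-122-5p was at 6.17 to 7.68 RPM, whereas miR-200a-3p, a miRNA of epithelia and the olfactory bulb, was at 13630 to 24120 RPM. The erythrocyte markers miR-451a and miR-144-3p were at 830 to 2942 RPM and 282 to 1288 RPM. The muscle markers miR-1a-3p and miR-133a-3p were at 96.1 to 226 RPM and 79.3 to 218 RPM. For miR-142a-3p and miR-223-3p, of leukocytes and microglia, the values were 243 to 489 RPM and 57.2 to 76.3 RPM. One library, 2M replicate 1, stood apart in an endocrine marker: it held 1124 RPM of miR-375-3p, and the other 5 libraries held 31.0 to 42.2 RPM. In bulk tissue, fewer cells of a type and less of a miRNA per cell cannot be told apart.

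The short reads were few in length classes and dominated by few sequences. Reads of 20 nt were 1024 of the 1638 sequences and 78.0% of the short reads, those of 19 nt were 479 sequences and 20.9%, and those of 18 nt were 135 sequences and 1.08%. No read under 18 nt carried a miRNA label, and the gel cut began at 19 nt. A mean of at least 10 RPM was reached by 481 sequences, of at least 100 RPM by 108 and of at least 1000 RPM by 16, and the 10 most abundant held 53.1% of all short reads. The lowest sequence inside the minimum had a mean of 1.0 RPM and the highest outside it 0.999 RPM. A further 5567 short sequences with a miRNA label lay under the minimum, and the 1638 held 98.9% of the RPM of all short miRNA reads.

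Most short reads had kept the seed and ended before the 3′ end of their main read. A read was called 3′ shortened where it was the 5′ part of its main read, and 634 sequences of 362 labels, with 77.1% of the short reads, were of this kind. Of these reads 42.9% lacked 1 base of the main read, 48.0% lacked 2, 6.94% lacked 3, 1.77% lacked 4 and 0.364% lacked 5. The label miR-124-3p held 40.2% of the 3′ shortened reads. It had no RefSeq entry, so its 21-nt main read could not be set against a mature sequence. Reads that shared the first 12 bases of the main read and were shorter, but differed from it after those bases, made up 2.67% of the short reads. The differing base need not be the last, and miR-124-3p held 43.5% of these reads. Their last base was A in 66.3% of these reads and T in 28.4%, with G in 3.45% and C in 1.83%. The share ending in A lay between 63.7% and 69.1% in the 6 libraries, the ages overlapping. The most abundant such read of miR-24-3p ended in A and was at 166 RPM, beside 2154 RPM of the plain 20-nt read.

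A smaller group had a different 5′ end and therefore another seed. Reads that started downstream of the main read were 592 sequences and 6.70% of the short reads, and those that started upstream were 3.52%. The label miR-101a-3p held 20.01% of the downstream reads: its main read began 1 base before the RefSeq mature sequence, and 78.8% of its short reads began downstream, led by the 20-nt read shown above at 1375 RPM. That read has a 6mer seed viability of 86.2%, against 61.1% for the main read. The 6mer seed viability (seed: read positions 2 to 7) is a score of the authors, the viability in percent that mouse cell lines kept once an siRNA carrying the seed was put into them, and low values are called toxic. The label miR-124-3p held 83.0% of the upstream reads, most of them in a single 20-nt sequence at 2814 RPM. For miR-132-5p, 72.3% of the short reads began upstream of its main read, and for miR-9-5p 47.4% began downstream. The main read of miR-132-5p began 1 base after its RefSeq mature sequence. Its leading upstream read, at 158.6 RPM, began where that mature sequence does. By class, the mean viability over the 6 libraries was 56.7% for 3′ shortened reads, 63.2% for downstream reads and 35.5% for upstream reads.

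Short reads were 10.77%, 12.08% and 11.96% of all miRNA reads in the 2M libraries and 11.58%, 10.98% and 10.49% in the 18M libraries. The ages overlapped, with means of 11.61% ± 0.725 and 11.02% ± 0.550 (SD, n = 3 each), and the difference of -0.589 points (18M minus 2M) was within the spread (exact two-sided permutation test, p = 0.3, where 0.1 is the smallest p that 3 against 3 allow). The direction of this difference rested on a single miRNA. Without miR-124-3p the 2M libraries had a short share of 7.95% ± 0.318 and the 18M libraries one of 8.52% ± 0.471 (SD, n = 3 each). Reads of 21 nt, just outside the limit, were 27.5% to 29.1% of the miRNA reads.

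By length, the 19-nt reads separated the ages before adjustment. They were 2.49%, 2.55% and 2.51% of the miRNA reads at 2M and 2.35%, 2.20% and 2.06% at 18M. The highest 18M library was below the lowest 2M library, by a difference in means of -0.317 points (exact permutation test, p = 0.1, and 0.45 adjusted over the 9 per-library measures). Without miR-124-3p the 2M libraries had 1.06% ± 0.0368 of 19-nt reads and the 18M libraries 1.15% ± 0.0880 (SD, n = 3 each), the opposite direction. Reads of 20 nt were 8.97% ± 0.701 (SD, n = 3) and 8.68% ± 0.385 (SD, n = 3), and those of 18 nt were 0.115% ± 0.00471 (SD, n = 3) and 0.130% ± 0.0194 (SD, n = 3), both overlapping.

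The brain miRNA miR-124-3p, which promotes the neuronal state, set the level of the whole class. It held 38.3%, 43.3% and 40.1% of the short reads at 2M and 30.0%, 36.7% and 27.1% at 18M, beside 7.42% to 11.2% of the longer miRNA reads. The values of the short reads did not overlap between the ages, whereas those of the longer reads did. Its own short-read share was 31.4%, 39.3% and 35.8% at 2M and 34.7%, 28.9% and 29.5% at 18M, and the ages overlapped. The change in its log2 ratio of short to longer reads was -0.29 ± 0.15 (SE), with an adjusted p of 0.556 (limma). Within miR-124-3p, 19-nt reads were 12.1% ± 0.366 (2M) and 10.7% ± 1.59 (18M), 20-nt reads 23.2% ± 3.91 and 20% ± 1.62, and 21-nt reads 43.3% ± 1.39 and 43.0% ± 4.37 (SD, n = 3 each).

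Split by arithmetic, the -0.589 points of the short share were -0.515 through the abundance of the miRNAs and -0.0734 through the short share within each miRNA. Of this, miR-124-3p contributed -1.27 points, -0.689 through its abundance and -0.579 through its own share. The next contributions were positive and smaller, 0.125 points from miR-29a-3p and 0.109 from miR-26a-5p.

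The 5′ ends and seeds of the short reads were compared per library, a design in which no p can be under 0.1. The share of short reads with the 5′ end of the main read was 89.44%, 91.01% and 89.73% at 2M and 89.41%, 88.76% and 89.10% at 18M. The ages did not overlap, though by a narrow margin, with means of 90.1% ± 0.839 (SD, n = 3) and 89.1% ± 0.322 (SD, n = 3), and the difference in means was -0.968 points (exact permutation test, p = 0.1, the smallest possible, and 0.45 adjusted over the 9 measures). Without miR-124-3p the difference was -0.695 points (exact permutation test, p = 0.3). Without miR-124-3p and miR-101a-3p, a pair left out after the data were seen, the share was 91.9% ± 0.331 (SD, n = 3) and 91.8% ± 0.644 (SD, n = 3). The mean 6mer seed viability of the short reads was 56.96% ± 0.234 in the 2M and 57.11% ± 0.568 in the 18M libraries (SD, n = 3 each), 0.143 points apart (exact permutation test, p = 0.8). In miRNA reads of 21 nt or more it was 58.3% ± 0.0877 (SD, n = 3) and 57.8% ± 0.305 (SD, n = 3), and every 18M library was below every 2M library, a difference that was not tested. The share of short reads that were shorter than the main read and differed from it after the first 12 bases was 2.38% ± 0.395 (SD, n = 3) and 3.01% ± 0.395 (SD, n = 3). These values overlapped again (exact permutation test, p = 0.2, and 0.45 adjusted).

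The short-read share of a miRNA, its short RPM divided by all its RPM, ranged from 0.176% to 92.3% over the 368 miRNAs with a mean total of at least 10 RPM. Its median was 6.50% and its quartiles were 2.98% and 14.2%. It was at least 50% for 7 miRNAs and at least 20% for 47, and under 1% for 19. The median was 6.48% over the 176 miRNAs of the 5p arm and 6.82% over the 188 of the 3p arm. It was 41.2% where the main read was 20 nt or less (18 miRNAs), 9.91% where it was 21 nt (101), 5.37% where it was 22 nt (196) and 2.96% where it was 23 nt or more (53). Across the 368 miRNAs, Spearman's rho of the share was -0.467 with the length of the main read, 0.204 with its GC content and -0.252 with the mean total RPM. These describe miRNAs that share the same libraries, and the share and the main read come from the same reads. A further 98 miRNAs of at least 10 RPM had no short read above the minimum, the most abundant being miR-411-5p at 1380 RPM.

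By amount, the short reads came from common brain miRNAs. After miR-124-3p at 39210 short RPM followed miR-26a-5p at 6586, miR-128-3p at 4251, miR-127-3p at 3750, miR-125b-5p at 3128, let-7b-5p at 3072, miR-24-3p at 2780, miR-30d-5p at 2735, miR-29a-3p at 2622 and miR-30e-5p at 2386 RPM. Their shares were not alike. The short-read share was 40.8% ± 1.21 (SD, n = 6) for miR-127-3p, an imprinted miRNA, 28.2% ± 4.34 for miR-24-3p, 17.2% ± 1.06 for let-7b-5p, 15.4% ± 1.11 for miR-26a-5p, 9.96% ± 1.55 for miR-125b-5p, 9.91% ± 0.850 for neuronal miR-128-3p and 7.52% ± 0.691 for miR-29a-3p. For miR-24-3p the 20-nt read at 2154 RPM came near the 22-nt main read at 2626 RPM, while for miR-125b-5p the values were 2659 and 19170 RPM.

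The highest shares belonged to miRNAs whose main read was short. The erythroid miR-144-3p had 93.8%, 92.8% and 89.0% at 2M and 92.5%, 93.7% and 91.7% at 18M, and its RefSeq mature sequence is also 20 nt. The share of miR-33-5p, which acts on cholesterol export, was 54.2%, 57.0% and 81.1% at 2M and 65.1%, 57.8% and 57.6% at 18M. Here 2M replicate 3 was far above the other libraries and the ages overlapped. The other 8 of the 10 highest were miR-490-5p at 73.1%, miR-412-5p at 61.6%, miR-3102-5p.2-5p at 56.1%, miR-501-5p at 54.1%, miR-666-5p at 52.9%, miR-331-3p at 49.8%, miR-134-5p at 41.5% and miR-127-3p at 40.8%. Of these, miR-331-3p had a mean total of 984 RPM and miR-127-3p of 9188 RPM, and the other 6 lay between 20.3 and 174 RPM. In a pair of them the ages did not overlap, and neither was called. The share of miR-412-5p was 65.6%, 69.9% and 69.1% at 2M and 47.8%, 61.9% and 55.2% at 18M, a log2 ratio change of -0.79 ± 0.21 (SE) with an adjusted p of 0.134 (limma). That of miR-490-5p was 72.2%, 80.2% and 74.4% at 2M and 69.7%, 70.95% and 71.1% at 18M, adjusted p 0.544 (limma).

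Among miRNAs of at least 1000 RPM, the lowest shares were 0.224% ± 0.0568 (SD, n = 6) for miR-103-3p and 0.263% ± 0.0603 for miR-342-3p. They were 0.473% for miR-135a-5p, 0.549% for erythroid miR-451a, 0.815% for miR-154-5p, 1.01% for miR-22-3p, 1.03% for miR-335-5p, 1.11% for miR-384-5p, 1.25% for miR-34a-5p and 1.27% for miR-29b-3p. The value of miR-103-3p is tied to the labels. As the sequences above show, the first 21 bases of miR-103-3p and miR-107-3p are the same. Short reads of this shared start carried the label miR-107-3p, whose share was 2.53%. The 21-nt main read of miR-107-3p, at 1329 RPM, is this shared start too, so it cannot be told apart from miR-103-3p. All 4 of the leading short reads labelled miR-103-3p began downstream of its main read. Taken as 1 unit, the pair had a share of 0.723% to 1.02% over the 6 libraries. Such a tie was rare: main reads with the same first 20 bases occurred in 3 groups with 6 labels, and 21 of the 1638 short sequences, with 0.332% of the short reads, lay whole in the main reads of more than 1 label.

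miRNAs of the same seed did not have the same short-read share. In the miR-30 family, with miR-384-5p, the shares were 1.11% for miR-384-5p, 2.61% for miR-30b-5p, 4.70% for miR-30c-5p, 24.4% for miR-30a-5p, 29.8% for miR-30e-5p and 30.9% for miR-30d-5p. The last 3 had a 20-nt main read, and miR-30c-5p had one of 24 nt. In the let-7 family, the shares of 9 miRNAs ran from 3.04% for miR-98-5p to 17.2% for let-7b-5p. In the miR-29 family, miR-29b-3p had 1.27%, miR-29a-3p 7.52% and miR-29c-3p 9.72%. Between miR-125a-5p and miR-125b-5p the shares were 1.84% and 9.96%.

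Single short reads were then compared between the ages with limma on log2(RPM + 1), fitted on all 16220 read sequences of the table with a mean of at least 1 RPM. Of the 1638 short miRNA reads, 4 had an adjusted p under 0.05 (0.244%), beside 0.123% of all sequences tested. Of these 1 was higher at 18M, beside 0.0801% of all sequences, and 3 were lower, beside 0.0432%. An unadjusted p under 0.05 was reached by 221 short reads (13.5%), beside 10.8% of all. Those higher at 18M numbered 142, beside 6.54% of all sequences, and those lower 79, beside 4.3%. The median log2 fold change was 0.05 over the short reads and 0.0057 over all sequences.

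The 20-nt read of miR-296-5p was 24.8, 24.7 and 38.0 RPM at 2M and 7.47, 3.45 and 5.25 RPM at 18M. All 18M libraries were below all 2M libraries, a log2 fold change of -2.26 ± 0.28 (SE) with an adjusted p of 0.0427 (limma). Its 19-nt read was 5.33, 12.3 and 7.24 RPM at 2M and 1.504, 1.066 and 1.096 RPM at 18M, and fell by 2.00 on the log2 scale, adjusted p 0.0447 (limma). The 20-nt read of its neighbour miR-298-5p was 36.3, 38.8 and 33.4 RPM at 2M and 14.2, 15.5 and 12.3 RPM at 18M. It fell by 1.31 ± 0.18 (SE) on the log2 scale, adjusted p 0.0447 (limma). In both miRNAs the longer reads were lower as well. All reads of miR-296-5p went from a mean of 419.9 RPM at 2M to 97.0 RPM at 18M, and those of miR-298-5p from 170.1 to 66.4 RPM. Their short-read shares were 9.77% ± 0.920 and 7.44% ± 2.42 for miR-296-5p, and 26.6% ± 1.90 and 25.8% ± 5.65 for miR-298-5p (SD, n = 3 each), overlapping in both.

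The read that rose was the 18-nt form of miR-338-3p, a miRNA of oligodendrocytes. At 18 nt this read lay below the gel cut, which began at 19 nt. The read was at 1.86, 2.35 and 1.81 RPM at 2M and 5.86, 5.89 and 6.30 RPM at 18M, with no overlap and a log2 fold change of 1.23 ± 0.16 (SE), adjusted p 0.0447 (limma). Here the miRNA as a whole did not separate the ages, with 5412, 6088 and 3485 RPM at 2M and 5242, 5129 and 5379 RPM at 18M. No short read kept an adjusted p under 0.05 in limma when any 1 of the 6 libraries was left out, where 0 to 6 of all sequences were called. The log2 changes of the 4 reads stayed near their size, at -2.49 to -2.02 for the 20-nt and -2.24 to -1.71 for the 19-nt read of miR-296-5p, -1.38 to -1.23 for miR-298-5p and 1.18 to 1.31 for miR-338-3p. The edgeR quasi-likelihood test called 0 short reads, beside 0.0555% of all sequences, and 224 had an unadjusted p under 0.05, beside 11.1% of all. Its adjusted p for the 4 reads lay between 0.0584 and 0.0595. DESeq2 called 34 short reads, beside 1.43% of all sequences.

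None of the 10 most abundant short reads passed the limma test. The 20-nt read of miR-124-3p was 18880, 29370 and 25810 RPM at 2M and 16940, 20910 and 13410 RPM at 18M, overlapping. Its 19-nt read was 14490, 14980 and 14080 RPM at 2M and 11010, 11510 and 9025 RPM at 18M. These did not overlap, yet the log2 change of -0.47 ± 0.14 (SE) had an adjusted p of 0.291 (limma; 0.00723 when no minimum was set on the sequences fitted). The 20-nt read of miR-29a-3p was 1653, 1741 and 1730 RPM at 2M and 3336, 1834 and 2989 RPM at 18M, with a log2 change of 0.63 ± 0.23 (SE) and an adjusted p of 0.381 (limma). For let-7b-5p it was 2335, 2372 and 2377 RPM at 2M and 2653, 3096 and 2766 RPM at 18M, adjusted p 0.533 (limma). The upstream 20-nt read of miR-124-3p was 3024, 3058 and 3051 RPM at 2M and 2548, 2910 and 2294 RPM at 18M, adjusted p 0.585 (limma). The ages did not overlap in this upstream read or in the 20-nt reads of miR-29a-3p and let-7b-5p. Groups that did not overlap were common, at 345 of the 1638 short reads (21.1%), beside 17.1% of all sequences tested. The 20-nt reads of miR-26a-5p, miR-128-3p, miR-127-3p, miR-125b-5p and miR-24-3p all overlapped, with log2 changes between -0.39 and 0.20.

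The share of each miRNA was tested with limma on the log2 ratio of short RPM + 1 to longer RPM + 1 for the 368 miRNAs. At an adjusted p under 0.05 a single miRNA was called, 0.272% of those tested. An unadjusted p under 0.05 was reached by 43 (11.7%), with 30 higher at 18M (8.15%) and 13 lower (3.53%). The ages did not overlap for 58 (15.8%), 40 of them higher at 18M. Over all 368 the ratio was higher at 18M for 209, and the median log2 change was 0.04.

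The miRNA called was miR-376a-3p, of the chromosome 12 miRNA cluster. Its short-read share was 4.08%, 4.78% and 4.08% at 2M and 2.18%, 2.31% and 2.17% at 18M, so every 18M library was lower. The log2 ratio fell by 0.98 ± 0.14 (SE), with an adjusted p of 0.0228 (limma). Its short reads were 53.7, 60.8 and 63.0 RPM at 2M and 85.8, 34.1 and 50.7 RPM at 18M and overlapped. All its reads were 1317, 1274 and 1545 RPM at 2M and 3941, 1475 and 2339 RPM at 18M. The call was lost when any 1 library other than 2M replicate 3 was left out, with adjusted p from 0.053 to 0.206 (limma) and a log2 change from -1.02 to -0.90. Of the related miRNAs, miR-376b-3p had a log2 change of -0.30 ± 0.28 (SE) and miR-376c-3p of 0.14 ± 0.23 (SE), neither called.

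No rise in a share passed the test. The 5 miRNAs with the smallest unadjusted p among those higher at 18M are given as values. The share of miR-29a-5p was 3.30%, 2.73% and 4.58% at 2M and 6.30%, 8.73% and 7.95% at 18M, a log2 ratio change of 1.11 ± 0.22 (SE) with an adjusted p of 0.0914 (limma). For miR-338-3p the share was 3.83%, 3.30% and 5.17% at 2M and 7.03%, 6.26% and 6.74% at 18M, adjusted p 0.127 (limma). In both, each 18M library was above each 2M library. For miR-29b-3p it was 0.922%, 0.845% and 1.17% at 2M and 1.45%, 1.63% and 1.60% at 18M, adjusted p 0.121 (limma). When 2M replicate 3 was left out, these 3 passed the threshold, with miR-376a-3p.

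The other 2 belonged to the miR-200 family. The share of miR-200b-3p was 6.63%, 5.13% and 6.30% at 2M and 8.93%, 9.82% and 9.01% at 18M, and that of miR-200c-3p was 3.97%, 3.11% and 3.55% at 2M and 5.23%, 6.27% and 5.60% at 18M, each with an adjusted p of 0.0914 (limma). Neither overlapped between the ages. In the family, miR-200a-3p had a log2 ratio change of 0.51 ± 0.13 (SE), miR-141-3p of 0.65 ± 0.17 (SE) and miR-429-3p of 0.20 ± 0.13 (SE), none of them called. The total RPM of miR-200b-3p was 6903 at 2M and 6595 at 18M (means of n = 3).

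The list of miRNAs known to be degraded through a target RNA held 7 miRNAs, of which 6 were tested and none was called. Of the 6, 3 were higher at 18M, beside 209 of all 368, and 2 of these, miR-29b-3p and miR-30c-5p, had an unadjusted p under 0.05, beside 30 of all 368 (8.15%). The median log2 change of the list was 0.05, beside 0.04 over all 368, and its median share was 2.16%, beside 6.50%. In miR-7a-5p, which Cyrano directs to decay, the short-read share was 3.67%, 1.32% and 1.40% at 2M and 1.27%, 1.61% and 0.949% at 18M. The high value was that of 2M replicate 1, where all reads of miR-7a-5p were 1397 RPM beside 254 to 314 RPM in the other 5 libraries, and its short reads 51.3 RPM beside 2.51 to 4.38 RPM. This is also the library with high miR-375-3p, and the part of either in the other was not tested. In miR-7b-5p the shares were 3.31%, 1.25% and 1.62% at 2M and 1.38%, 1.29% and 0.889% at 18M. Those of miR-30c-5p were 4.34%, 3.08% and 3.88% at 2M and 5.58%, 4.50% and 6.83% at 18M, adjusted p 0.240 (limma), without overlap. The highest share of the list was that of miR-322-5p, at 22.97% ± 3.13 (SD, n = 6), and miR-30b-5p had 2.61% ± 1.08 (SD, n = 6).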

How the data were processed

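Groups came from the sample titles, and members, lists and named items were chosen with earlier results of these data known. The authors trimmed reads (Trim Galore per the labels), collapsed identical reads, and matched them to small RNA lists with their SPOROS pipeline; versions and alignment settings were not given in the sources used here. The deposited values are RPM per read sequence. The deposited total over libraries is a signal column used only to check the table, and the deposited 6mer seed viability is a score of the authors from 3 mouse cell lines. In every library 100% of values were whole multiples of 1 read (within 0.05 reads), so reads were recovered; no pair of libraries was a duplicate (chi-square per degree of freedom at least 10.5).

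Read length was counted from the sequence. A read had the main 5′ end where it shared the first 12 bases of the main read. For per-library values the test was the exact permutation test, two-sided, with Benjamini-Hochberg adjustment over 9 measures. Read sequences and short to longer ratios were tested with limma 3.58.1 (eBayes with trend, pseudocount 1 RPM) in R 4.3.3, adjusted over everything tested, threshold 0.05; fold changes on this scale understate those of low reads. Members had to reach the minimum in the mean only, so a read high in 1 age can pass through it. On the recovered reads, edgeR 4.0.16 called 9 and DESeq2 1.42.0 called 232 of 16220 sequences, and limma 20. Scripts were tested on simulated data; Python 3.11.15 with pandas 2.3.3 and NumPy 2.4.6 was used.

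Named miRNAs were the 10 with the most short RPM, the 10 highest shares (mean total of at least 10 RPM), the 10 lowest (at least 1000 RPM), up to 5 called in each direction or, where none was called, the 5 smallest p, and the list of target-directed degradation. Named reads were the 10 most abundant and up to 5 called in each direction. Other miRNAs were named for their family or class after their values were seen. A Wilson 95% interval of the short share of all miRNA reads was at most 0.0292 points wide, and for miR-7b-5p in 18M replicate 3 it ran from 0.593% to 1.33%. Intervals cover counting error only, since the table counts reads without molecular identifiers. The labels number replicates without naming animals, so p-values measure the spread between these samples, which may be technical. Same-numbered libraries did not deviate together (correlations of -0.149, -0.081 and 0.014), so the numbers were not taken as pairs.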

Additional observations from a re-analysis of the deposited data

How the results depend on the processing

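Without miR-124-3p the difference in the short-read share was 0.572 points in place of -0.589, that in seed viability -0.128 in place of 0.143 and that in the 19-nt share 0.0956 in place of -0.317; the last alternative was chosen after the data were seen. The 7 other settings kept the direction of the short-read share and the 8 others that of the 5′ end share. Each count includes the replicate block with exact sign flips. Its mean difference equals the main one by construction and could not have turned. One of these 8, without miR-124-3p and miR-101a-3p, left a 5′ end difference of only -0.0289 points (exact permutation test, p = 0.9). That pair was left out after the data were seen. Leaving out each library gave -1.01 to -0.323 points for the short-read share, -1.28 to -0.491 for the 5′ end share and -0.131 to 0.437 for viability, where the negative value was without 18M replicate 1. The smallest exact p in any of these was 0.1, which is also the smallest 3 against 3 allow, so they say nothing on stability.

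Of the short reads, limma called 4 (20 of all sequences), DESeq2 34 (232 of all), limma with no filter 8 (54 of all), edgeR 0 (9 of all; 224 short reads at an unadjusted p under 0.05) and limma with the replicate block 0 (0 of all; 194 unadjusted). Leaving out each library gave 0 calls each time (0 to 6 of all; 146 to 263 unadjusted). The other settings, 5 of 9, gave 4 to 6. The number of miRNAs with a changed share was 1; with the replicate block it was 0 (40 unadjusted) and with reads of 19 nt or less 0 (33 unadjusted, 246 tested). Leaving out each library gave 0 to 4, with 4 without 2M replicate 3. With the replicate block the mean difference in the short-read share was -0.589 points, the same by construction (exact sign flips, p = 0.5, where 0.25 is the smallest possible). The causes were not tested. Small log2 changes that were not called turned sign: miR-128-3p 20 nt (-0.09; leaving out each library -0.30 to 0.04), miR-7b-5p from -0.38 to 0.10 with pseudocount 5, miR-322-5p from -0.14 to 0.71 with 19 nt or less (leaving out each library -0.28 to 0.04), and miR-30b-5p (0.24; leaving out each library -0.14 to 0.77). Rare reads limit these tests: the called 19-nt read of miR-296-5p was near 1 RPM at 18M, where 3 reads are 0.128 to 0.156 RPM.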
